A study of Mus musculus with 24 samples.

Results

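Chemokines and their receptors were examined in the inguinal white adipose tissue of young mice, the fat pad under the skin of the groin. The members were all genes of the deposited expression table with a chemokine ligand symbol (Ccl, Cxcl, Cx3cl1, Xcl1), a chemokine receptor symbol (Ccr, Cxcr, Cx3cr1, Xcr1) or an atypical chemokine receptor symbol (Ackr). The rule used symbols only and gave 54 of 16118 genes: 19 CC ligands, 13 CXC, CX3C and XC ligands, 18 signalling receptors and 4 atypical receptors. The sequencing libraries came from 24 mice, 1 library each, in 6 groups of 4. Males and females were taken at postnatal day 21 (p21), or at day 28 (p28) after standard weaning (SW) or delayed weaning (DW). The labels of all p21 animals also carry SW. Below, SW names p28 animals only, and the p21 animals are the reference for both weaning groups. Under standard weaning the pups left their mother at p21, and under delayed weaning they stayed with it until the tissue was taken. The labels give no strain, genotype, diet or agent for any group, and they do not say which mice were littermates, so the p-values measure the spread between these animals. In whole tissue, fewer cells of a type and less RNA per cell cannot be told apart.

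Chemokines are small secreted proteins that guide the movement of leukocytes, and they act through receptors that couple to inhibitory G proteins. CC and CXC ligands are named for the spacing of their first cysteines. Some of them, such as Ccl21a, Ccl19 and Cxcl13, are made steadily by stromal cells and place lymphocytes and dendritic cells within lymph nodes, and others, such as Ccl2, Cxcl1 and Cxcl10, are induced by inflammatory signals and draw monocytes, neutrophils or T cells. Atypical receptors bind chemokines without G protein signalling and remove or transport them. The inguinal fat pad contains a lymph node and, in females, the mammary gland, and adipose tissue holds many resident macrophages.

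Promoter sequences are shown for 4 ligands on which the results turn: Cxcl9 and Cxcl10, which lie next to each other on chromosome 5, Ccl8, which was higher in all p28 than in all p21 animals, and Cxcl15, which differed between the sexes. Each is the stretch of 250 bases before the transcription start in RefSeq, build GRCm38.p6, printed 5′ to 3′ on the gene's own strand. Capitals mark the letters TATAAA in Cxcl9, Ccl8 and Cxcl15. In Cxcl9 they lie much further from the start than in Ccl8 and Cxcl15 and are not named a TATA box here. In Cxcl10 capitals mark the letters GAAA repeated after a gap of 2 bases, which resemble an interferon-stimulated response element.
Cxcl9 lies on the minus strand at chr5:92328080-92328329, Cxcl10 on the minus strand at chr5:92348890-92349139, Ccl8 on the plus strand at chr11:82114935-82115184 and Cxcl15 on the plus strand at chr5:90794284-90794533. Gene positions given further below follow the deposited table and cannot be laid over these.
Cxcl9: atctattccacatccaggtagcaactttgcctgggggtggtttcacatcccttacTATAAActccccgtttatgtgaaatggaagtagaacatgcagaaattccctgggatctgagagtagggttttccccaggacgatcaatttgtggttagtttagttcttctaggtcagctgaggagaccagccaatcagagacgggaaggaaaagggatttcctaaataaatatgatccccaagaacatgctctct
Cxcl10: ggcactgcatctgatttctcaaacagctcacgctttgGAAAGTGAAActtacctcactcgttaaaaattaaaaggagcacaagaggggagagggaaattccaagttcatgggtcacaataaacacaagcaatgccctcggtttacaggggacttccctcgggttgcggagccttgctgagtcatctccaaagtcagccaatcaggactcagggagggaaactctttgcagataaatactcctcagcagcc
Ccl8: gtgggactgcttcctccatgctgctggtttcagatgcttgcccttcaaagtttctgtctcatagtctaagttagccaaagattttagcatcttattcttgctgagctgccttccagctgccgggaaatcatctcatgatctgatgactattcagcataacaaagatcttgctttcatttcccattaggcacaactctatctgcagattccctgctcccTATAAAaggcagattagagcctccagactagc
Cxcl15: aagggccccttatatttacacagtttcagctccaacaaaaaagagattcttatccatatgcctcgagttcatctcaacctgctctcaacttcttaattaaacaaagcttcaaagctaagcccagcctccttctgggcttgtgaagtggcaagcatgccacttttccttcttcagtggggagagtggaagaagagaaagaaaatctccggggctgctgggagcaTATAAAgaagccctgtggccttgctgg

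RefSeq promoters matched 41 of the 54 members by symbol, with 45 promoters among them, each reaching from 250 bases before to 50 after a start. Motifs were searched on both strands, and the shares in the set were set beside those in all 32851 promoters of the same length. TATAAA stood in 13 of 45 member promoters (28.9%) and in 13.6% of all promoters, the kappaB-like letters GGG, any 2 bases and TTTCC in 4 (8.89%) and 1.63%, and the letters GAAA, any 2 bases and GAAA in 3 (6.67%) and 3.44%. The kappaB-like letters were found in Ccl9, Ccr3, Cxcl1 and Cxcl2, and the repeated GAAA in Ccl19, Cxcl10 and Cxcl14. TTCNNNGAA, which resembles a site for STAT factors, was in 8.89% of member promoters and 8.3% of all, TTGCNNAA, resembling a C/EBP site, in 11.1% and 10.8%, and GAGGAAGT, resembling an ETS site, in 2.22% and 3.2%. The TATAAA letters began 32 bases before the start in Ccl8, 27 before it in Cxcl15 and 195 before it in Cxcl9. TATAAA matches are counted apart from the other motifs, and a match is a description of these letters and not a bound site.

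Values are reads divided by a factor for each library, called normalised reads below. Libraries held 57600711 to 302145813 reads over the listed genes, so that 1 read was worth 0.00358 to 0.0154 normalised reads. The p21 male numbered 53 had the fewest reads, 14054 genes with a read against 15497 or more in all groups but its own, and the highest B cell, T cell and lymph node marker sums of its group. The p28 SW male 84 had the fewest reads of its group, 76850086, and the p28 DW females 82 and 83 the lowest Ccl21a of theirs, 146 and 130.3. Calls that ended without these animals are given as such. Other animals were extreme for more members. Of 54 members, SW male 124 was the highest of its group for 30, DW male 87 the lowest for 32 and SW female 74 the lowest for 29. Animals at p21 were numbered 30 to 56 and those at p28 73 to 124, so age and the run of animal numbers cannot be told apart. Summed adipocyte markers (Adipoq, Plin1, Fabp4, Lep and Cidec) ranged from 12219.8 to 21293.4 and none of the 5 was at 0 in all libraries. In males they were 12219.8 to 14484.1 at p21, 15125.7 to 21293.4 in SW and 16199.8 to 19830 in DW animals. In females they were 14854.9 to 19709.5, 14735 to 19402 and 15233.7 to 19545.6.

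Levels between genes were compared per kilobase of exon. Ccl21a, the ligand of Ccr7 made by lymphatic and lymph node stroma, had the highest mean over all animals, 391.7 normalised reads per kilobase (chromosome 4, 42772860 to 42773993; gene positions are those of the deposited table, which names no build). It alone made up 47.8% to 57.2% of the summed level of all members in the 6 groups. Reads of Ccl21a can be shared with near-identical copies on chromosome 4, so its value is uncertain. The same holds for Ccl19 and Ccl27a. The next levels were 39.1 for Ccl6, 36.9 for Cxcl13, 26.6 for both Ccl19 and Ccl22, 25.5 for Cxcl9 and 23.8 for Cxcl12. Among receptors Cxcr4, the receptor of Cxcl12, was highest at 20.2 per kilobase and Ccr7 followed at 11.5. The atypical receptor Ackr3, which also binds Cxcl12, stood at 13.9. All receptors together gave 10.1% to 12.2% of the summed level. The lowest levels were those of Ccr1l1, Cxcl2, Cxcl11 and Ccr3, each at or under 0.0411 per kilobase.

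**Figure D1:**
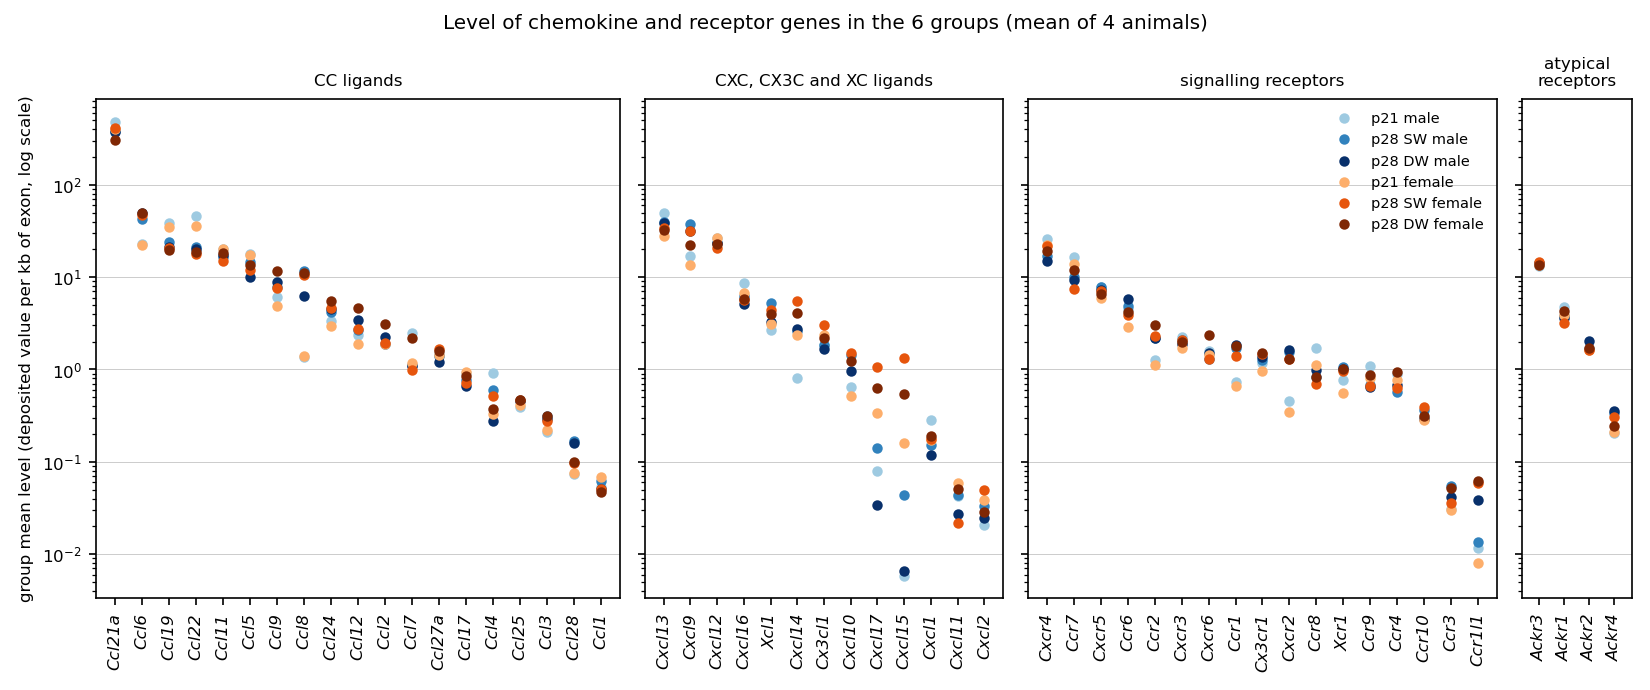
Mean level of 53 of the 54 members in each of the 6 groups, in normalised reads per kilobase of exon on a log axis, arranged by role; each point is the mean of 4 animals. Ccl21a stands above all other members in every group, with a mean over all animals of 391.7, and Cxcl2, Cxcl11, Ccr3 and Ccr1l1 lie at the bottom.

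The member with the highest level in each role did not pass the test between ages, sexes or weaning groups, except Cxcr4 in a single comparison. Ccl21a was measured at 314, 321, 521 and 525 normalised reads in p21 males, 232, 209, 403 and 473 in SW males and 328, 349, 342 and 266 in DW males. Females gave 293, 307, 469 and 332 at p21, 333, 286, 439 and 362 after standard weaning and 481, 316, 146 and 130.3 after delayed weaning. All groups overlapped, and the lowest values were those of DW females 82 and 83. Cxcl13, which draws B cells to follicles, read 32.1, 31.5, 108 and 56.0 in p21 males, with animal 53 highest, and its other group means lay between 32.0 and 45.5. Cxcl13 in DW females read 43.1, 35.5, 36.5 and 35.5.
Cxcr4 measured 38.9, 38.5, 56.8 and 52.7 in p21 males, 24.5, 16.1, 33.5 and 49.3 in SW males and 33.7, 23.2, 27.7 and 24.3 in DW males. In females it measured 39.5, 39.7, 44.6 and 35.5 at p21, 37.3, 39.7, 54.9 and 25.5 in SW and 31.2, 25.2, 40.7 and 42.5 in DW animals. Every DW male lay below every p21 male and the other groups overlapped with p21. Ackr3 held group means between 44.4 ± 8.61 (SD, n = 4; p21 males) and 48.9 ± 3.64 (SD, n = 4; SW females), with single animals from 35.4 to 58.8 and all groups overlapping.

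Age was the comparison in which most members moved. Each p28 group was set against the p21 group of its sex, with limma on log2(normalised reads + 1) over 16005 genes and Benjamini-Hochberg adjustment, and a gene counts as called at an adjusted p under 0.05. Of 53 members tested, 13 (24.5%) were called in SW males, 9 higher and 4 lower at p28, where 11.9% of all genes were called. In SW females 15 (28.3%) were called, 12 higher and 3 lower, beside 11.6% of all genes. In DW males 15 (28.3%) were called, 7 higher and 8 lower, beside 15.0%, and in DW females 14 (26.4%), 13 higher and 1 lower, beside 12.1%. The member not tested, Ccr1l1, did not pass the filter on low counts. Within a sex the SW and DW comparisons share the p21 animals, so their values are given side by side and not as a replication.

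By direction, the shares of all genes called higher were 6.90% in SW males, 7.39% in SW females, 8.86% in DW males and 5.95% in DW females, against 17%, 22.6%, 13.2% and 24.5% of members. Shares called lower were 4.97%, 4.23%, 6.10% and 6.16% of all genes, against 7.55%, 5.66%, 15.1% and 1.89% of members. The groups did not overlap for 7, 17, 15 and 15 members (13.2%, 32.1%, 28.3% and 28.3%), beside 16.2%, 21.5%, 23.1% and 15.1% of all genes. The median log2 change over the members was 0.04 in SW males and 0.12 in SW females (0.01 for all genes in both), 0.00 in DW males (0.02) and 0.12 in DW females (0.00). Without p21 male 53 the counts were 7 in SW males and 8 in DW males, and without DW male 87 the latter was 9. Where the fit held the compared groups alone, 4 members were called in SW males. Summed markers of macrophages rose with age as well: 342 to 475 at p21, 615 to 960.0 in SW and 795 to 899 in DW males, and 301 to 370.4, 661 to 833 and 696 to 959 in females, with 5, 5, 7 and 5 of the 7 markers called higher in SW males, SW females, DW males and DW females and none at 0. Of 5 erythroid markers 4, 2, 4 and 5 were called lower, their sum ranging from 421 to 1364 at p21 and from 112 to 413 at p28. Of 5 skeletal muscle markers 4 were called higher in each male comparison, with a sum of 2.19 to 438 in p21, 324 to 5016 in SW and 257 to 5365 in DW males, and none was called in females, in whom the sum ranged from 2.45 to 2575. Of 5 adipocyte markers 3 were called in SW males and 2 in DW males. For 5 blood endothelium markers these counts were 1 and 3, and for 5 lymphatic endothelium markers also 1 and 3. In females 0 markers of these lists were called with age. The part of all these cells in the members' values was not tested.

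The sexes were compared by the members called in both. After standard weaning 9 members were called in both sexes, 69.2% of the 13 of males and 60% of the 15 of females, and each had the same sign in both: Ccl6, Ccl8, Cxcl9, Cxcl10, Cxcl14, Ccr2 and Cxcr2 rose, and Ccl22 and Ccr7 fell. Of all genes, 727 were called in both sexes, 38.2% of those of males and 39.1% of those of females, 99.4% of them with the same sign. After delayed weaning 7 members were called in both, 46.7% of 15 and 50% of 14, beside 702 of all genes, 29.3% and 36.2% of those called, 99.3% with the same sign. Of these Ccl6, Ccl8, Ccr1, Ccr2 and Cxcr2 rose and Ccl22 fell in both sexes, while Ccl7 fell in males and rose in females.

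**Figure D2:**
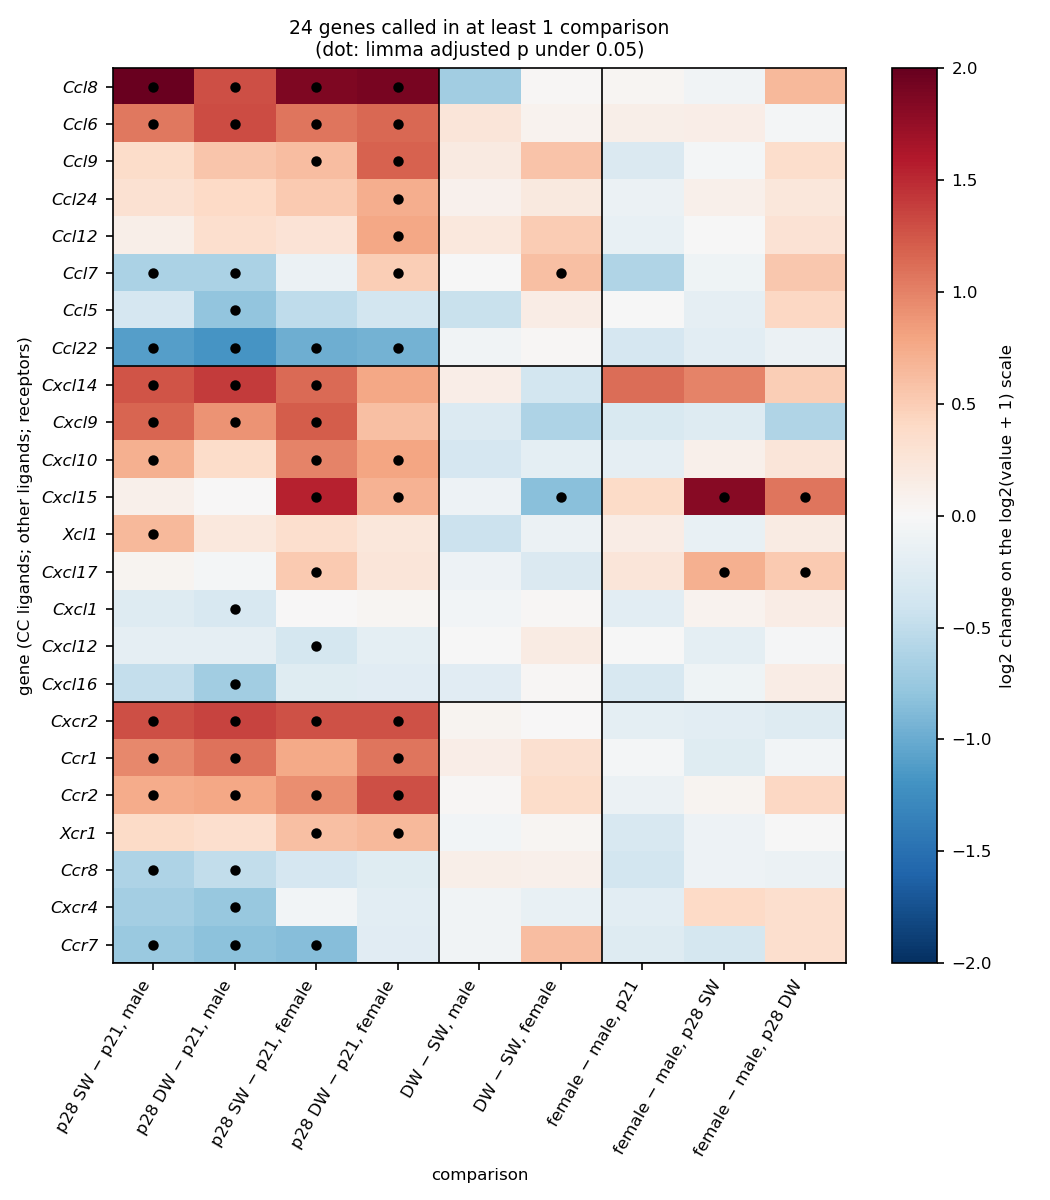
Log2 change, on the log2(normalised reads + 1) scale, of 24 of the 25 members called in at least 1 of the 9 pairwise comparisons; columns are comparisons, colour gives direction and size, and a dot marks an adjusted p under 0.05. Ccl8, Cxcr2, Ccr2, Ccl6 and Ccl22 carry a dot in all 4 age columns, and the columns for weaning in males and for sex at p21 hold none.

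Among CC ligands, 2 were called higher and 2 lower in SW males, 3 and 1 in SW females, 2 and 3 in DW males, and 6 and 1 in DW females, of 19 tested. Ccl8, also called MCP-2, attracts monocytes and T cells and lies in a cluster of CC ligands on chromosome 11 (82006011 to 82007625). In p21 males it measured 0.628, 0.298, 1.09 and 0.764 normalised reads, in SW males 3.78, 6.71, 3.91 and 9.57, and in DW males 3.58, 3.32, 1.73 and 4.15. In females it measured 0.896, 0.724, 0.665 and 0.587 at p21, 6.05, 4.73, 6.00 and 4.52 after standard weaning and 3.63, 4.34, 6.97 and 7.47 after delayed weaning. All 16 p28 animals lay above all p21 animals. Group means at p28 were 8.61, 7.42, 4.59 and 7.80 times those at p21 in SW males, SW females, DW males and DW females. The log2 changes were 1.98, 1.87, 1.29 and 1.90, each with SE 0.24, and the adjusted p values 3.5e-05, 1.63e-05, 0.00161 and 6.27e-05 (limma). Each of these calls stood under every alternative run, including without each animal in turn.

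Ccl6, a macrophage chemokine of rodents, was the CC ligand with the next highest level after Ccl21a (chromosome 11, 83478708 to 83483913). Values were 65.9, 53.5, 24.8 and 18.6 in p21 males, 90.9, 71.1, 63 and 81.1 in SW males and 92.3, 87.8, 81.4 and 97.9 in DW males. Females had 40.3, 27.7, 48.6 and 42.9 at p21, 90.9, 107, 58.4 and 85.4 in SW animals and 102, 105, 72.4 and 76.2 in DW animals. Every p28 group lay above its p21 group except SW males, whose lowest animal was below the highest p21 male. The rise was 1.88-fold in SW males (adjusted p = 0.0166), 2.14-fold in SW females (0.0128), 2.21-fold in DW males (0.0042) and 2.22-fold in DW females (0.00977), with log2 changes of 1.06, 1.07, 1.30 and 1.14 and SE 0.28 (limma). The SW male call ended without p21 male 53 or 54 (adjusted p from 0.0601 to 0.0603) or without 53 and SW male 84 together (0.0912). With only the compared groups fitted it ended too (0.116). The SW female call ended without p21 female 36 (0.0524).

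Ccl22, made by dendritic cells and macrophages and acting on Ccr4 of regulatory and helper T cells, moved the other way (chromosome 8, 95472218 to 95478327). Male values were 94.6, 89.0, 130.2 and 109 at p21, 34.7, 53.4, 43.4 and 66.5 in SW and 40.9, 43.6, 69.8 and 35.4 in DW animals. Female values were 77.3, 87.2, 97.5 and 70.1 at p21, 42.2, 37.6, 47.2 and 38.9 in SW and 61.9, 47.4, 32.3 and 33.2 in DW animals. No p28 animal reached the lowest p21 animal of its sex. Means at p28 were 0.468 of the p21 mean in SW males, 0.50 in SW females, 0.448 in DW males and 0.526 in DW females. The log2 changes of -1.10, -0.98, -1.17 and -0.95 (SE 0.22) had adjusted p values of 0.00226, 0.00385, 0.00147 and 0.00597 (limma). Without DW females 82 and 83 the last was -0.60 with an adjusted p of 0.129. Ccl17, the other ligand of Ccr4 and a neighbour of Ccl22 on chromosome 8, was low, with group means from 0.341 to 0.482, and was called in no comparison.

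Ccl7, a monocyte chemokine (MCP-3) of the same chromosome 11 cluster as Ccl8 (81936538 to 81938351), fell with age in males in both weaning groups and rose in females after delayed weaning. In p21 males it measured 1.45, 1.39, 2.02 and 3.01, in SW males 0.736, 0.924, 0.848 and 1.03 and in DW males 0.916, 0.705, 1.12 and 0.760. In females it measured 0.704, 0.846, 1.00 and 1.17 at p21, 1.16, 0.535, 0.894 and 0.593 after standard weaning and 1.24, 1.52, 2.54 and 1.70 after delayed weaning. Among males every p21 animal lay above every p28 animal, and among females every DW animal lay above all others. Ccl7 fell in SW males (log2 change -0.63, SE 0.15, adjusted p = 0.0105) and DW males (-0.64, 0.00838), rose in DW females (0.50, 0.0362), and had a change of -0.11 in SW females (0.714; limma). Levels rested on 60 to 363 reads per library. The DW female call ended without any of p21 females 30, 36 and 55 or DW females 82 and 83 (adjusted p from 0.0587 to 0.146). It also ended in 4 settings (0.0506 to 0.303): edgeR with either scaling, only the compared groups, and without 82 and 83 together. The SW male call ended when only the compared groups were fitted (0.0638).

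The remaining CC ligands were called in females more than in males in number, a difference that was not tested. Ccl9, a macrophage inflammatory protein of rodents, rose in females from 14.8 ± 2.55 normalised reads at p21 to 23.0 ± 1.98 in SW (adjusted p = 0.0387) and 35.3 ± 8.05 in DW animals (0.000434; SD, n = 4, limma). The SW call on Ccl9 ended without p21 females 36 or 56 or any single SW female, with adjusted p up to 0.12. With edgeR and its own scaling it ended too (0.0598). In DW females Ccl12, another monocyte chemokine, rose from 1.02 to 2.49 (adjusted p = 0.00307) and Ccl24, an eosinophil chemokine, from 3.87 to 7.19 (0.0168). Without DW females 82 and 83 the Ccl12 value had an adjusted p of 0.0533, and without p21 female 56 that of Ccl24 was 0.0645. With only the compared groups fitted that of Ccl24 was 0.123. Ccl5, made by T cells among others, fell in DW males from 17.1 to 9.54 (0.0474). That call ended without any of p21 males 38, 53 and 54 or DW males 79, 80 and 87 (0.0527 to 0.177). It also ended without 53 and 84 (0.102), with the B and T cell score (0.23) and with only the compared groups (0.0621). Ccl2, the main ligand of Ccr2, had group means from 2.14 to 3.5 and was called in no comparison.

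**Figure D3:**
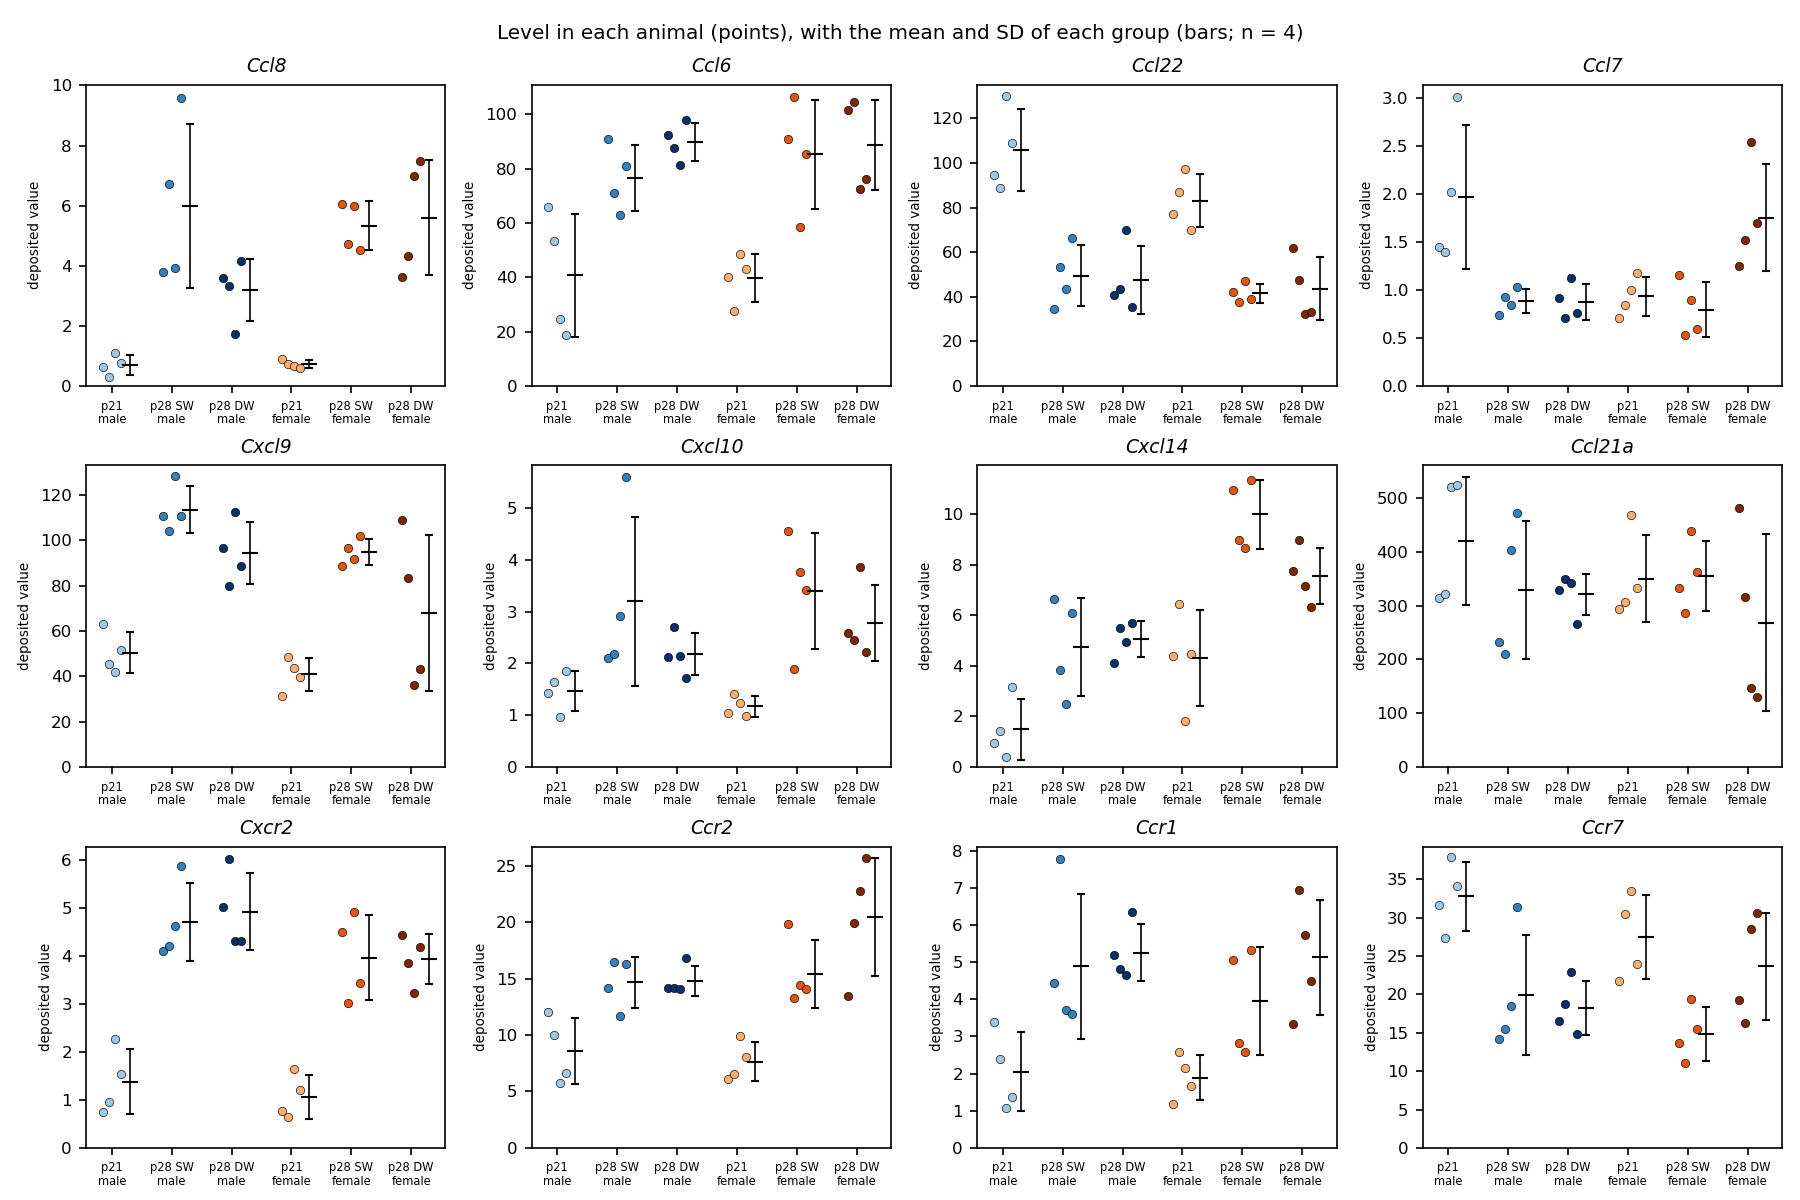
Normalised reads in each of the 24 animals for 12 members, with the mean and SD of each group of 4. Ccl8 and Cxcr2 are higher in all p28 animals than in all p21 animals, Ccl22 is lower, and Ccl7 is high in p21 males and DW females.

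Neighbours in the genome did not all move alike. The Ccl2 to Ccl1 cluster of chromosome 11 spans 270.1 kb in the deposited positions and holds Ccl2, Ccl7, Ccl11, Ccl12, Ccl8 and Ccl1. Within it Ccl8 rose in all 4 age comparisons, Ccl7 fell in males, Ccl12 was called in DW females, and Ccl2, Ccl11 and Ccl1 were called in none. The Ccl5 to Ccl4 cluster spans 138.9 kb of the same chromosome with Ccl5, Ccl9, Ccl6, Ccl3 and Ccl4. There Ccl6 rose in all 4 comparisons and Ccl9 in those of females, Ccl5 fell in DW males, and Ccl3 and Ccl4 were called in none.

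Among CXC, CX3C and XC ligands 4 were called higher and 0 lower in SW males, 5 and 1 in SW females, 2 and 2 in DW males, and 2 and 0 in DW females, of 13 tested. Cxcl9, a ligand of Cxcr3 that is induced by interferon gamma and draws activated T cells, lies on chromosome 5 (92469206 to 92475938) beside Cxcl10 and Cxcl11. Male values were 62.9, 45.5, 41.9 and 51.6 at p21, 111, 104, 128 and 111 in SW and 96.8, 79.9, 112 and 88.7 in DW animals. Female values were 31.4, 48.3, 43.7 and 39.9 at p21, 88.7, 96.7, 91.9 and 102 in SW and 109, 83.1, 36.2 and 43.2 in DW animals. The SW groups and DW males lay wholly above p21, whereas DW females 82 and 83 lay within the p21 range. Cxcl9 rose 2.25-fold in SW males (log2 change 1.17, SE 0.23, adjusted p = 0.00254), 2.32-fold in SW females (1.21, 0.00112) and 1.87-fold in DW males (0.90, 0.0131; limma). In DW females the change was 0.60 with an adjusted p of 0.096, and without animals 82 and 83 it was 1.22 with 0.000214. Both animals were chosen after the data were seen and had the lowest Cxcl9 of their group. Leaving them out therefore had to raise the change, and no conclusion is drawn from it. Without p21 male 53 and SW male 84 the DW male change was 0.81 with an adjusted p of 0.0523.

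Cxcl10, another interferon-induced ligand of Cxcr3 (chromosome 5, 92494497 to 92496748), was lower in level than Cxcl9. Its male values were 1.42, 1.63, 0.955 and 1.85 at p21, 2.09, 2.18, 2.92 and 5.59 in SW and 2.12, 2.71, 2.14 and 1.72 in DW animals. Its female values were 1.03, 1.41, 1.24 and 0.981 at p21, 4.56, 1.89, 3.76 and 3.41 in SW and 2.59, 2.45, 3.86 and 2.22 in DW animals. The p28 animals lay above p21 in every group but DW males, where a single animal fell within the p21 range. Cxcl10 rose in SW males (log2 change 0.71, SE 0.21, adjusted p = 0.0314), SW females (0.99, 0.00295) and DW females (0.79, 0.0173), and the change in DW males was 0.37 (0.246; limma). The SW male call ended without any of p21 males 37 and 53 and SW males 85 and 124 (0.0555 to 0.119) or without 53 and 84 together (0.0735). With only the compared groups fitted it ended too (0.122). The DW female call ended without animal 82 (0.0704) or without 82 and 83 (0.092). Their shared receptor Cxcr3 had group means from 2.95 to 3.90, and Cxcl11, the third ligand, stayed under 0.415 in every animal. Neither was called.

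Cxcl14, a ligand made by epithelia and fibroblasts whose receptor is debated, lies on chromosome 13 (56436456 to 56444364). Males had 0.945, 1.44, 0.401 and 3.16 at p21, 6.63, 3.85, 2.47 and 6.07 in SW and 4.10, 5.48, 4.93 and 5.68 in DW animals. Females had 4.40, 6.45, 1.82 and 4.48 at p21, 11.0, 8.99, 8.65 and 11.4 in SW and 7.74, 8.97, 7.17 and 6.31 in DW animals. DW males and SW females lay wholly above their p21 groups, and the other p28 groups overlapped with p21 by a single animal. Cxcl14 rose 3.2-fold in SW males (log2 change 1.26, SE 0.29, adjusted p = 0.00735), 3.40-fold in DW males (1.39, 0.00354) and 2.33-fold in SW females (1.13, 0.0121). The change in DW females was 0.77 (0.0888; limma). The SW female call ended without p21 female 55 (0.0605) and with edgeR (0.061 to 0.0677). The SW male call ended where the fit held the compared groups alone (0.0724).

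Other ligands of these families passed in single age comparisons. Xcl1, the ligand of Xcr1 on cross-presenting dendritic cells, rose in SW males from 1.40 to 2.73 (adjusted p = 0.01), a call that ended where the fit held the compared groups alone (0.0964). Cxcl12, the stromal ligand of Cxcr4, fell in SW females from 215 to 167 (0.0415). Cxcl16, the ligand of Cxcr6, fell in DW males from 26.0 to 15.6 (0.0141), and Cxcl1, a neutrophil chemokine, from 0.537 to 0.221 (0.038; limma). The Cxcl12 call ended without p21 females 36 or 56 or any single SW female (0.0647 to 0.151) and with edgeR and DESeq2 size factors (0.0639). That of Cxcl16 ended without p21 male 53 or DW male 87 (0.0599 to 0.0659), without 53 and 84 (0.0659) and with the B and T cell score (0.0726). The Cxcl1 call ended without p21 male 53 or any single DW male (0.0576 to 0.154) and in 5 settings (0.0817 to 0.202): edgeR with either scaling, a pseudocount of 0.1, only the compared groups and the B and T cell score. Cxcl15 and Cxcl17 are described with the sexes below.

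Of 17 signalling receptors tested, 3 were called higher and 2 lower in SW males, 4 and 1 in SW females, 3 and 3 in DW males, and 5 and 0 in DW females. Cxcr2, the receptor through which Cxcl1 and Cxcl2 attract neutrophils, lies on chromosome 1 (74193148 to 74200405). Its male values were 0.750, 0.955, 2.26 and 1.54 at p21, 4.10, 4.20, 4.62 and 5.87 in SW and 5.03, 6.01, 4.31 and 4.31 in DW animals. Its female values were 0.768, 0.639, 1.65 and 1.20 at p21, 4.49, 3.01, 4.92 and 3.44 in SW and 4.44, 3.85, 3.23 and 4.19 in DW animals. All 16 p28 animals lay above all p21 animals. Means at p28 were 3.41, 3.73, 3.56 and 3.69 times those at p21 in SW males, SW females, DW males and DW females. The log2 changes of 1.29, 1.27, 1.35 and 1.28 (SE 0.18) had adjusted p values of 0.000147, 6.63e-05, 0.000116 and 0.000191 (limma). None of these calls ended under an alternative run or without an animal. Summed neutrophil markers (S100a8, S100a9, Retnlg and Mpo) were low, from 0.478 to 7.48 over all animals. S100a8 alone among them was called with age, higher in DW females (log2 change 0.88, adjusted p = 0.00474), and their part in Cxcr2 was not tested.

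Ccr2, which brings monocytes into tissue in response to Ccl2, Ccl7 and Ccl12, lies in a group of 8 receptor genes on chromosome 9 (123901987 to 123913594). Males gave 12.1, 9.96, 5.73 and 6.60 at p21, 14.2, 16.5, 11.7 and 16.3 in SW and 14.2, 14.2, 14.1 and 16.8 in DW animals. Females gave 6.09, 6.58, 9.88 and 8.01 at p21, 19.8, 13.3, 14.4 and 14.1 in SW and 13.4, 19.9, 22.7 and 25.7 in DW animals. Only SW males overlapped with p21. Ccr2 rose 1.71-fold in SW males (log2 change 0.75, SE 0.21, adjusted p = 0.0208), 2.02-fold in SW females (0.93, 0.00395), 1.72-fold in DW males (0.77, 0.0157) and 2.68-fold in DW females (1.30, 0.000368; limma). The SW male call ended without any of p21 males 53 and 54 and SW males 84 and 124 (0.0536 to 0.0754) or without 53 and 84 together (0.164). With only the compared groups fitted it ended too (0.0867). The DW male call ended without p21 male 53 or DW male 87 (0.0569 to 0.0664), without 53 and 84 (0.0697) and with a B and T cell score in the fit (0.0683).

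Ccr1, a receptor of Ccl3, Ccl5, Ccl6 and Ccl9 on monocytes and neutrophils, lies on chromosome 9 as well (123762161 to 123768729). Its male values were 3.38, 2.39, 1.06 and 1.36 at p21, 4.45, 7.77, 3.71 and 3.61 in SW and 5.18, 4.81, 4.65 and 6.34 in DW animals. Its female values were 1.17, 2.59, 2.15 and 1.66 at p21, 5.06, 2.82, 2.57 and 5.33 in SW and 3.34, 6.95, 5.72 and 4.49 in DW animals. All groups but SW females lay wholly above p21. Ccr1 rose in SW males (log2 change 0.96, SE 0.26, adjusted p = 0.0178), DW males (1.09, 0.00736) and DW females (1.07, 0.00846), and the change in SW females was 0.75 (0.0619; limma). Without p21 male 53 or 54 or SW male 84 the SW male call ended (0.0508 to 0.0719), and without 53 and 84 together the change was 0.58 (0.192). That call also ended with only the compared groups fitted (0.083).

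Ccr7, the receptor by which T cells and dendritic cells follow Ccl19 and Ccl21a into lymph nodes, was the receptor called lower most often. It is described beyond the rule for values by animal, having been chosen after its values were seen. Means fell from 32.8 ± 4.45 in p21 males to 19.9 ± 7.87 in SW (log2 change -0.75, adjusted p = 0.0349) and 18.3 ± 3.5 in DW males (-0.82, 0.0196; SD, n = 4, limma). In females the mean fell from 27.4 ± 5.47 at p21 to 14.9 ± 3.51 in SW animals (-0.85, 0.0157), and it was 23.7 ± 6.98 in DW animals (-0.23, 0.55). DW males and SW females lay below p21, and SW males overlapped through animal 124. The SW male call ended without any of p21 males 37, 53 and 54 or SW males 78, 84 and 85 (0.0553 to 0.109). It also ended in 5 settings (0.053 to 0.203): edgeR with either scaling, only the compared groups, the B and T cell score, and without 53 and 84. The SW female call ended without p21 female 55 or SW female 74 (0.0602 to 0.0656) and the DW male call without p21 male 53 or DW males 79 or 87 (0.0516 to 0.0727). Summed lymph node markers (Madcam1, Glycam1, Chst4, Fcamr and Clec4g) were 643 to 1772 in p21, 270 to 847 in SW and 520 to 828 in DW males. In females they were 795 to 983, 478 to 1021 and 659 to 1025. Of these 5 markers, 2 were called in SW males, 2 in DW males, 0 in SW females and 1 in DW females. Their part in Ccr7 was not tested. Of 7 B cell markers 0 were called in each age comparison. Summed T cell markers (7 genes, none at 0) were 370.0 to 636 in p21, 281 to 405 in SW and 247 to 335 in DW males, and 326 to 429, 226 to 362 and 264 to 360.2 in females. Of them 2, 4, 0 and 1 were called lower in SW males, DW males, SW females and DW females, and their part was not tested beyond a fit with a B and T cell score. With that score the Ccr7 change was -0.55 in SW males (adjusted p = 0.0689), -0.51 in DW males (0.112) and -0.75 in SW females (0.00779), so that the calls in males ended and that in SW females stood. Without animals 53 and 84 the changes in SW and DW males were -0.59 (0.203) and -0.74 (0.0649).

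The other receptors passed in fewer comparisons. Xcr1, found on cross-presenting dendritic cells, rose in females from 2.48 to 4.32 in SW (limma, adjusted p = 0.0413) and 4.46 in DW animals (0.0287). Of 5 dendritic cell markers, Clec9a alone was called in these comparisons, higher in both (log2 changes 0.73 and 0.69), while the medians of the list were 0.05 and -0.08 and its sum ranged from 51.7 to 75.5 in p21, 60.5 to 74.3 in SW and 57.3 to 69.1 in DW females. Their part in Xcr1 was not tested. Ccr8, a receptor of regulatory T cells, fell in males from 2.03 to 0.981 in SW (0.0152) and 1.15 in DW animals (0.0409), and Cxcr4 fell in DW males (log2 change -0.75, SE 0.25, adjusted p = 0.0494).
The Xcr1 calls ended without single animals (SW: p21 females 30, 36 and 56 and SW females 73, 75 and 81; DW: p21 females 30 and 36 and DW female 83), with adjusted p up to 0.144. The DW call on Xcr1 also ended with only the compared groups fitted (0.0859). The Ccr8 call in SW males ended without p21 male 53 (0.0531), without 53 and 84 (0.131) or with only the compared groups (0.0868). That in DW males ended without any of p21 males 53 and 54 and DW males 79, 80 and 87 (0.0652 to 0.159) and in 6 settings (0.0644 to 0.223), the B and T cell score among them. The Cxcr4 call ended without p21 male 53 or 54 or any single DW male (0.0504 to 0.145). It also ended in 3 settings (0.0527 to 0.269): no variance trend, the B and T cell score, and without 53 and 84.
The atypical receptors Ackr1, Ackr2, Ackr3 and Ackr4 were called in none of the 12 comparisons with limma, and at an unadjusted p under 0.05 a single receptor passed in each male age comparison. Ackr4, which scavenges Ccl19 and Ccl21a, had group means from 1.11 to 1.92, Ackr1 from 4.44 to 6.61 and Ackr2 from 5.02 to 6.37.

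Weaning was compared at p28, DW minus SW, within each sex. In males limma called 0 of 53 members, edgeR and DESeq2 also 0, and 2 had an unadjusted p under 0.05. Of all genes 0.256% were called. The 3 members with the smallest p were Ccl8, at 3.19 ± 1.04 in DW and 5.99 ± 2.74 in SW males (log2 difference -0.70, SE 0.24, adjusted p = 0.421), Xcl1 (-0.44, 0.461) and Ccl5 (-0.44, 0.838). The DW and SW males overlapped for all 3. Within the run of animals 73 to 80 the Ccl8 difference was -0.10 (2 DW against 1 SW male) and within 81 to 87 it was -0.71 (2 against 2). The groups did not overlap for 1 member, Ccl4 (1.89%, beside 8.73% of all genes).

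In females 2 members (3.77%) were called, beside 1.27% of all genes: Cxcl15 was lower and Ccl7 higher after delayed weaning, where 0.812% of all genes were called lower and 0.462% higher. The groups did not overlap for 6 members (11.3%, beside 5.79%): Ccl7, Ccl9, Ccl11 and Ccr4 were higher and Cxcl15 and Cxcl17 lower, 4 of them without passing the test. Ccl7 measured 1.75 ± 0.557 in DW and 0.795 ± 0.289 in SW females (SD, n = 4; log2 difference 0.61, SE 0.15, adjusted p = 0.0497, limma). The difference was 0.37 among animals 73 to 80 and 0.96 among 81 to 87, where there was 1 SW female. The call ended in 10 of 12 alternatives (adjusted p from 0.051 to 0.797) and without any of SW females 74, 75 and 81 or DW females 82 and 83 (0.0866 to 0.252). Without DW female 76, by contrast, 7 members were called. Cxcl17 had a difference of -0.28 with an adjusted p of 0.113. The interaction of sex and weaning was called for 0 members with limma, edgeR and DESeq2, with 4 at an unadjusted p under 0.05 and 0.0187% of all genes called. The smallest p were those of Cxcl15 (log2 difference of differences -0.75, adjusted p = 0.316; with edgeR 1.46 and with DESeq2 1.45, the opposite sign), Ccl7 (0.62, 0.802) and Ccr7 (0.69, 0.802).

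Females and males were compared in the 3 age and weaning groups, females minus males. At p21 limma called 0 of 53 members and edgeR 0, DESeq2 called 2, and 7 had an unadjusted p under 0.05, while 0.356% of all genes were called (0.331% higher in females). The groups did not overlap for 2 members (3.77%), Ccl7 and Cxcl15, beside 3.97% of all genes. The members with the smallest p at p21 were Ccl7, lower in all 4 females than in all 4 males (log2 difference -0.59, adjusted p = 0.137), Cxcl14 (1.12, 0.144) and Cxcl15 (0.38, 0.381). At p28 2 members (3.77%) were called after standard weaning, beside 3.54% of all genes (3.36% higher in females), and 2 (3.77%) after delayed weaning, beside 2.46% (1.89% higher). They were Cxcl15 and Cxcl17, higher in females both times. Next came Cxcl14 after standard weaning (0.99, adjusted p = 0.0667) and Ccl7 after delayed weaning (0.54, 0.064), each without overlap of the sexes. Cxcl14 passed with only the compared groups and with the run of animal numbers in the fit, and Ccl7 with DESeq2 and with the B and T cell score. In each weaning group the sexes did not overlap for 6 members (11.3%), beside 7.77% and 10.9% of all genes. Without DW female 76, 5 members were called between the sexes after delayed weaning.

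Cxcl15, called lungkine, is a neutrophil chemokine of mice known from epithelia of the lung, and lies on chromosome 5 (90942393 to 90950926). Males measured 0, 0, 0 and 0.0498 at p21, 0.373, 0, 0 and 0 in SW and 0, 0, 0.0566 and 0 in DW animals. Females measured 0.160, 0.291, 0.116 and 0.807 at p21, 3.08, 2.92, 3.23 and 2.17 in SW and 0.994, 1.07, 1.08 and 1.42 in DW animals. Every female lay above every male of its group, and among females p21, DW and SW animals followed each other upward, with only p21 female 56 near the DW animals. The male groups summed to 6, 39 and 6 reads (p21, SW, DW) and the female groups to 151, 1473 and 539. The log2 difference between the sexes was 1.82 after standard (SE 0.13, adjusted p = 1.09e-09) and 1.07 after delayed weaning (8.16e-06). It was 1.57 and 1.66 within the runs 73 to 80 and 81 to 87 of SW animals, and 1.02 and 1.13 within those of DW animals.

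Among females Cxcl15 rose 8.30-fold from p21 to SW (log2 change 1.54, adjusted p = 5.33e-08) and 3.32-fold to DW animals (0.70, 0.00107). The mean in DW females was 0.400 of that in SW females (log2 difference -0.84, SE 0.13, adjusted p = 0.00182, limma). This weaning difference was -1.01 among animals 73 to 80 and -0.50 among 81 to 87, and its call stood without each animal in turn. On recovered reads it was -1.28 with edgeR (adjusted p = 0.501) and -1.30 with DESeq2 (0.665). With limma the adjusted p was 0.109 when only the compared groups were fitted and 0.197 with a pseudocount of 0.1. The calls between ages of females also ended with edgeR and DESeq2 (0.0681 to 0.512), and that between SW animals of the sexes with DESeq2 (0.0695). The change with age differed between the sexes after standard weaning (interaction 1.44, SE 0.18, adjusted p = 9.68e-05), beside 1.03% of all genes called, but with edgeR it was 0.23 and with DESeq2 0.17 (adjusted p = 1 in both), and with a pseudocount of 0.1 it was 2.54 (0.0835).

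Cxcl17, a ligand made by mucosal epithelia (chromosome 7, 25099478 to 25112311), was present at lower levels. Males measured 0.0518, 0.0217, 0 and 0.166 at p21, 0.287, 0.0840, 0.0250 and 0.0317 in SW and 0.0352, 0.0300, 0.0378 and 0 in DW animals. Females measured 0.328, 0.404, 0.0482 and 0.238 at p21, 0.710, 0.731, 0.755 and 1.03 in SW and 0.555, 0.560, 0.395 and 0.425 in DW animals. At p28 all females lay above all males of their weaning group (log2 difference 0.71 with an adjusted p of 3.38e-06 in SW and 0.53 with 0.000425 in DW animals, SE 0.09, limma). Cxcl17 rose in females from p21 to SW (0.53, 0.00022), a call that ended with edgeR and DESeq2 (0.116 to 0.184), and the change to DW females was 0.25 (0.0608).

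Markers of mammary epithelium (Krt8, Krt18, Krt19, Epcam, Krt5 and Krt14) were, like both ligands, highest in SW females when summed. Their sum was 0.339 to 12.3 in p21, 1.25 to 29.0 in SW and 1.22 to 7.83 in DW males, and 16.5 to 65.1, 213 to 290.0 and 61.6 to 167 in females. The males with Cxcl15 reads, animals 54, 78 and 86, had the highest marker sum and the highest Cxcl17 of their groups. In DW male 86 this rested on 4 reads of Cxcl17, beside 5 in DW male 79, and on 6 reads of Cxcl15. Within the p28 female groups Cxcl15 did not share the order of the sums. DW female 76 had the highest sum, 167, and the lowest Cxcl15 of its group, DW female 83 a sum of 65.1 and the highest Cxcl15, and SW female 81 the highest sum, 290.0, and the lowest Cxcl15. Cxcl17 shared it in part. SW female 81 had the highest Cxcl17 and the highest sum of its group, and DW female 82 the lowest of both. The highest Cxcl17 in DW animals, that of female 77, did not go with the highest sum. The lowest in SW animals, that of female 73, did not go with the lowest sum. Of the 6 markers 5 were called higher with age in SW females, 1 in DW females (Krt19), and 4, 6 and 6 were higher in females at p21, SW and DW. The calls on the ligands did not match these throughout. Neither ligand was called between the sexes at p21, and Cxcl15 but not Cxcl17 was called between DW and SW females. Between DW and SW females none of the 6 was called with limma and 5 had an unadjusted p under 0.05, with a median log2 difference of -1.21, and their part in the Cxcl15 and Cxcl17 differences was not tested.

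**Figure D4:**
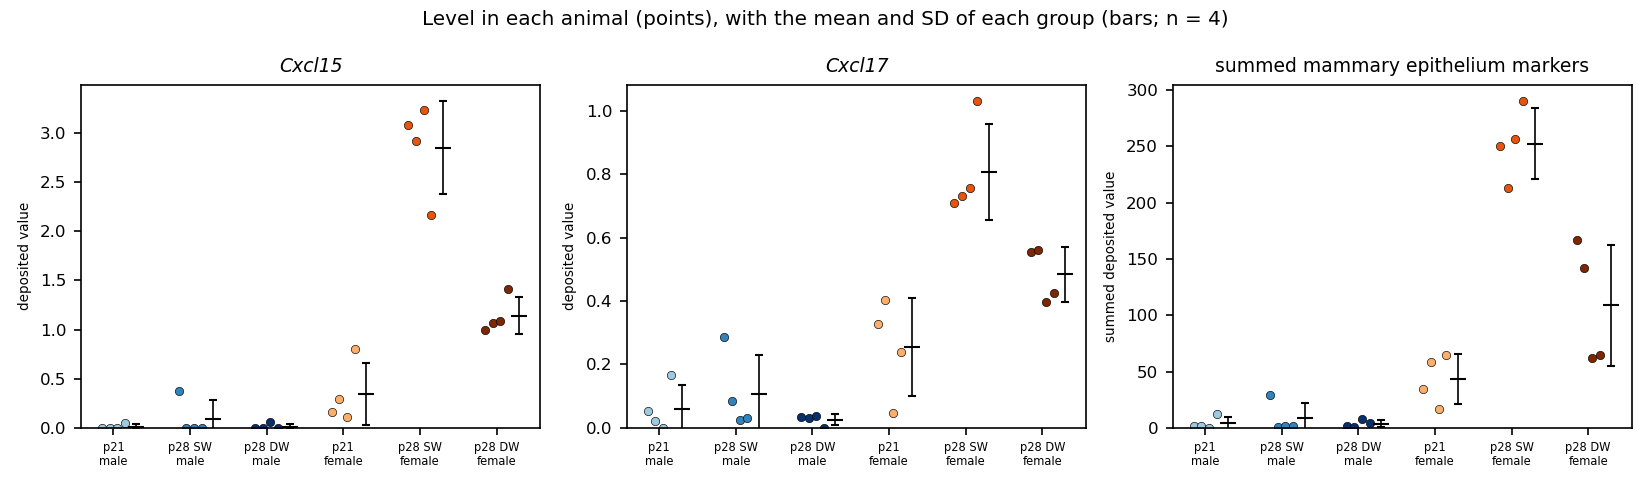
Normalised reads of Cxcl15, Cxcl17 and the sum of 6 mammary epithelium markers in each of the 24 animals, with group means. All 3 are highest in SW females, where Cxcl15 lies between 2.17 and 3.23, and at or near 0 in most males.

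The difference between the sexes in the change of Ccl7 was the other interaction called. From p21 to DW it fell in males and rose in females, a difference of changes of 1.13 on the log2 scale (SE 0.22, adjusted p = 0.0466, limma), beside 0.0687% of all genes called (0.0437% with a positive difference). This interaction was added after the data were seen. It was lost in 8 of 11 alternatives (adjusted p from 0.0646 to 0.16) and without 13 of the 16 animals in turn (0.059 to 0.124): all p21 males and DW males, p21 females 30, 36 and 55, and DW females 82 and 83. The same interaction for Cxcl15 was 0.69 (adjusted p = 0.12).

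Other genes of the chemokine system were followed by lists. Of 10 genes outside the symbol rule, 2 were called higher with age in SW males (Ppbp, a platelet chemokine, and Gpr182, a chemokine scavenger of endothelium), 3 in DW males (both of these and Cmklr1, the chemerin receptor), 1 in SW females (Pf4, a platelet chemokine also made by macrophages) and 2 in DW females (Pf4 and Cklf). Shares of all genes called higher were 6.90%, 8.86%, 7.39% and 5.95% in the same order. Pf4 rose from 2.83 at p21 to 5.80 in SW (adjusted p = 0.0059) and 8.40 in DW females (0.000226). Gpr182 rose from 14.2 to 26.4 in SW (0.0167) and 32.6 in DW males (0.00213), and in DW females it measured 16.0, below DW males (0.00855; limma). Of 27 tested genes of receptor signalling, among them G protein subunits, regulators of G protein signalling and integrins, none was called with limma between p21 and SW animals, where 2 in males and 5 in females had an unadjusted p under 0.05. Of all genes 11.9% were called there in males and 11.6% in females. In DW males Gng2, a G protein gamma subunit, rose (log2 change 0.26) and Rgs1, which shortens G protein signals, fell (-0.90). These were 2 of 27, beside 15.0% of all genes called. In DW females Gng2 (0.39) and Rgs18 (0.57) rose and Plcb3, a phospholipase, fell (-0.62). That made 3 of 27, beside 12.1% of all genes called. For weaning no gene of the signalling list was called with limma, and 2 in males and 5 in females had an unadjusted p under 0.05. Of all genes 0.256% were called for weaning in males and 1.27% in females.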

How the data were processed

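Poly(A) RNA libraries of inguinal white adipose tissue from 24 mice were sequenced, per the labels' protocols with a KAPA mRNA HyperPrep kit. The submitters' processing notes name the build mm10, fastp, HISAT2, featureCounts and DESeq2 1.38.3. The values deposited by the authors are a signal per gene and animal, reads divided by 1 factor for each sample without length correction, and 100% of them were whole multiples of the value of 1 read (tolerance 0.001), so that reads could be recovered. The table held 16208 rows, and 90 repeated rows were left out. The build of the gene positions is not given in the sources used here: 2.23% of 16095 starts equal those of GENCODE M21. They also differ from the GRCm38.p6 promoter positions. Cxcl9 lies at 92469206 to 92475938 as deposited, and its promoter at 92328080 to 92328329. Animals were grouped by age, sex and weaning labels and by ID. Titles of p21 libraries name p28, and 1 title gives another animal number, so titles were not followed.

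The test was limma 3.58.1 (R 4.3.3, variance trend) on log2(value + 1), since the values are normalised. It took all 24 animals with 6 group coefficients (18 residual degrees of freedom) and 16005 genes passing edgeR's filterByExpr (minimum count 10), with Benjamini-Hochberg adjustment over all of them. Log2 changes on this scale understate those of low genes. edgeR 4.0.16 and DESeq2 1.42.0 on recovered reads were alternatives, and the fit was tested on simulated data. No replicate pair agreed within sampling noise. Exon lengths came from GENCODE M21 and promoters from RefSeq. Named genes were all members called, the 3 with the smallest p where fewer were called, and, with values by animal, the 12 called most often, the highest of each role and those in an interaction. Members and lists were chosen with earlier results of these data known. Ccl20, Ccl21b, Ccl21c, Ccl26, Ccl27b, Cxcl3, Cxcl5 and Cxcr1 were not analysed here, and values of 1 further member are not reported here.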

Additional observations from a re-analysis of the deposited data

Results flagged for a closer look

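Among 16 members with values by animal, 96 groups of 4 were examined for an animal far from its group by Dixon's criterion, and 6 were found, where chance gives about 1 in 20, or 4.8. For Cxcl15 a single male per group had reads: p21 male 54 at 0.0498, SW male 78 at 0.373 and DW male 86 at 0.0566 normalised reads, with the other 3 animals at 0. With 3 of 4 animals at 0 the criterion is met by any value of the remaining animal. These flags can therefore not be set beside the chance rate. Ccr2 in DW male 87 measured 16.8, with the others between 14.1 and 14.2. Cxcl17 in SW female 81 measured 1.03, above 0.710 to 0.755, and Cxcl13 in DW female 76 measured 43.1, above 35.5 to 36.5.

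The change with age differed between the sexes by a test of the difference for 2 members. These were Cxcl15 from p21 to standard weaning (1.44 on the log2 scale) and Ccl7 from p21 to delayed weaning (1.13). The Cxcl15 value was lost in 4 alternatives (edgeR with either scaling, DESeq2 and a pseudocount of 0.1), falling to 0.17 with DESeq2, and the Ccl7 value in 8 of 11.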

How the results depend on the processing

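Of 65 calls in pairwise comparisons and interactions, 28 stood under every alternative and without each animal in turn; edgeR kept 52, DESeq2 59 and the fit without animals 53 and 84 kept 50. The settings without animals 82 and 83 and the sex by age interaction with delayed weaning were chosen after seeing the data. No paired analysis was possible because animal numbers are not shared between groups. Depth limits Cxcl15 and Cxcl17 in males, and Cxcl2 and Ccr1l1 in both sexes, where groups hold few reads.

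Weaning in females gave 2 members, but 0 with edgeR, with edgeR and DESeq2 size factors, with a pseudocount of 0.1 and with only the compared groups, and 1 with DESeq2, a value of at least 1 in 4 samples, no variance trend, a B and T cell score, the run of animal numbers, and without animals 53 and 84 or 82 and 83. Age after standard weaning in males gave 13, but 4 with only the compared groups and 8 without 53 and 84, and age after delayed weaning in males 15, but 8 without them. Sex at p21 gave 0, but 2 with DESeq2. Sex at p28 gave 2, but 1 after standard weaning with DESeq2 and 1 in either weaning group with a value of at least 1; DESeq2 gave 3 after delayed weaning. The sex by age interaction with standard weaning gave 1, but 0 with edgeR (either scaling), DESeq2 and a pseudocount of 0.1, and 2 with the B and T cell score. That with delayed weaning gave 1, but 0 with edgeR (either scaling), a value of at least 1, a pseudocount of 0.1, only the compared groups, the B and T cell score, and without 53 and 84 or 82 and 83.

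Leaving out single animals gave 0 to 0 members for weaning in males, 1 to 7 for weaning in females, 7 to 16 and 12 to 14 for age after standard weaning in males and females, 8 to 18 and 12 to 16 after delayed weaning, 0 to 1, 2 to 3 and 2 to 5 for sex at p21, standard and delayed weaning, 0 to 0 for sex by weaning, and 1 to 2 and 0 to 2 for sex by age after standard and delayed weaning. The sex by weaning interaction of Cxcl15, -0.75 with limma, was 1.46 with edgeR, 1.45 with DESeq2 and 1.42 with edgeR and DESeq2 size factors. Its male side rested on 39 reads in SW animals, all in animal 78, and on 6 in DW animals, all in animal 86. The cause of the opposite signs was not tested.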
